A study of Drosophila melanogaster with 18 samples.

Results

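The mitochondrial ribosomal protein genes described here were all rows of the deposited expression table whose FlyBase symbol starts with mRpL or mRpS. There were 71 of them among 15682 rows, 47 mRpL genes and 24 mRpS genes. The annotation holds 73 such symbols, and mRpS5 and mRpS34 were not analysed here. Both tko and bonsai, which encode the small subunit proteins S12 and S15, have other symbols and were kept apart.

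Mitochondria carry their own ribosomes, which translate the few proteins that the mitochondrial genome encodes, all of them core subunits of the respiratory chain and of the ATP synthase. The rRNA of these ribosomes comes from mitochondrial DNA, whereas their proteins are encoded in the nucleus, made in the cytoplasm and imported. In Drosophila most of these protein genes have symbols that start with mRpL for the large subunit or mRpS for the small subunit. In the ovary, large numbers of mitochondria are loaded into the growing egg.

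Poly(A) RNA of whole Drosophila melanogaster ovaries was sequenced in 18 libraries, 3 for each of 6 groups, and the labels call the 3 samples of a genotype biological triplicates. The groups were ada2b mutant ovaries and their FRT control, ovaries labelled Ataxin-7 and their FRT control, and non-stop mutant ovaries and their FRT control, where FRT is the wild-type background of each experiment. The labels name no allele, driver or age. All 6 groups shared the clone protocol: larvae were kept at 37 °C for 2 hours on 2 days to induce germline clones, the culture temperature was 25 °C, and ovaries were taken after 2 to 3 days on yeast. The 3 genes encode subunits of SAGA, a coactivator complex of the nucleus with a histone acetyltransferase module, to which Ada2b belongs, and a histone H2B deubiquitinase module, to which Ataxin-7 and Non-stop belong. In such clones the germ cells are mutant, while a whole ovary also holds follicle cells and muscle, and whether these cells carried clones is not stated.

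Reads on genes numbered 22608227 to 42018393 per library, with the fewest in ada2b replicate 1. Ada2b had 6.17 to 8.75 RPKM (reads per kilobase of gene length, scaled to the size of the library) in ada2b ovaries, against 44.4 to 46.5 RPKM in FRT ovaries. The gene not, which encodes Non-stop, had 1.52 to 1.82 RPKM in non-stop ovaries, against 17.9 to 24.0 RPKM in FRT ovaries. Atxn7 went against its label, with 12.4 to 12.5 RPKM in the libraries labelled Ataxin-7, against 7.59 to 7.92 RPKM in FRT libraries, so these are called by their label throughout. Germline markers were present in every group, and 5 of the 7 listed ones had a row in the table. Their summed level was 171 to 238 RPKM in ada2b ovaries, against 348 to 379 RPKM in FRT ovaries. It was 449 to 473 RPKM in ovaries labelled Ataxin-7, against 436 to 475 RPKM in FRT ovaries, and 299.7 to 345 RPKM in non-stop ovaries, against 315 to 325 RPKM in FRT ovaries.

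The members were expressed at moderate and rather even levels. Over the 9 FRT libraries their mean RPKM had a median of 42.5, and 66 of the 71 lay between 20 and 80 RPKM. The highest was mRpL12, which builds the stalk of the large subunit that recruits elongation factors, at 104 RPKM, followed by mRpS18A at 86.0 RPKM and mRpL30 at 85.7 RPKM. The lowest were mRpS9 at 7.55 RPKM, mRpL34 at 21.1 RPKM and mRpL48 at 23.1 RPKM. The position of mRpS9 was set by the length used in its RPKM, 13388 bases, which matches the span of the gene with its introns (13391 bases) and not its 1293 exonic bases. Rescaled to exonic length, mRpS9 stood at 78.2 RPKM, sixth of 71, and the order of the 71 levels on both scales had a Spearman correlation of 0.80. The top changed too: mRpL53 stood highest on that scale, at 132 RPKM, above mRpL12 at 112 RPKM. The length used for mRpL53 was 1470 bases, against 829 exonic bases. Every member had at least 90 reads in every library, with a median of 1311, so that none was lost to the filter on low values and all 71 entered every test.

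The genes lie on all major arms, with 11 on X, 12 on 2L, 12 on 2R, 15 on 3L and 21 on 3R, and they are short. Their exonic length had a median of 783 bases (327 to 2078), against 1947 bases for all genes tested in the ada2b experiment. For 40 of the 71 the annotation places another gene on part of the same stretch, on the opposite strand for 39 and on the same strand for 3. Whether the counting used strand is not stated in the sources used here, so reads of these 40 genes and of their neighbours cannot be told apart with certainty. Among others named below, this holds for mRpL24 (with synr), mRpL42 (Cdc2rk), mRpL43 (sigmar) and mRpL44 (POLDIP2).

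The median member level in a group was 43.8 ± 3.48 RPKM in ada2b ovaries and 38.3 ± 1.17 RPKM in their FRT control (mean and SD of the medians of 3 libraries). It was 34.0 ± 0.641 RPKM in ovaries labelled Ataxin-7 and 37.9 ± 1.67 RPKM in their FRT control, and 38.8 ± 1.62 RPKM in non-stop ovaries and 50.1 ± 0.571 RPKM in their FRT control. The order from high to low was therefore non-stop FRT, ada2b, non-stop, ada2b FRT, FRT of the Ataxin-7 label and the Ataxin-7 label. Non-stop ovaries and the FRT controls of both other experiments lay within their SDs of each other, and the SD ranges of ada2b and non-stop ovaries touched. The highest of the 3 FRT groups was that of the non-stop experiment. Whether the authors scaled the 3 experiments together was not tested, so changes below are always against the FRT control of the same experiment.

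Each mutant was compared with its FRT control on log2(RPKM + 1), with limma fitted over every gene whose RPKM averaged 1 or more, and p-values were adjusted over all of these by the Benjamini-Hochberg method. A gene was called at an adjusted p under 0.05, and a change is written as higher or lower only where it was called. Fold changes are on the log2(RPKM + 1) scale. For a single gene with 3 libraries against 3, the smallest p that an exact two-sided permutation test can give is 0.1. In bulk ovaries, fewer cells that express a gene and less of its RNA per cell cannot be told apart.

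**Figure D1:**
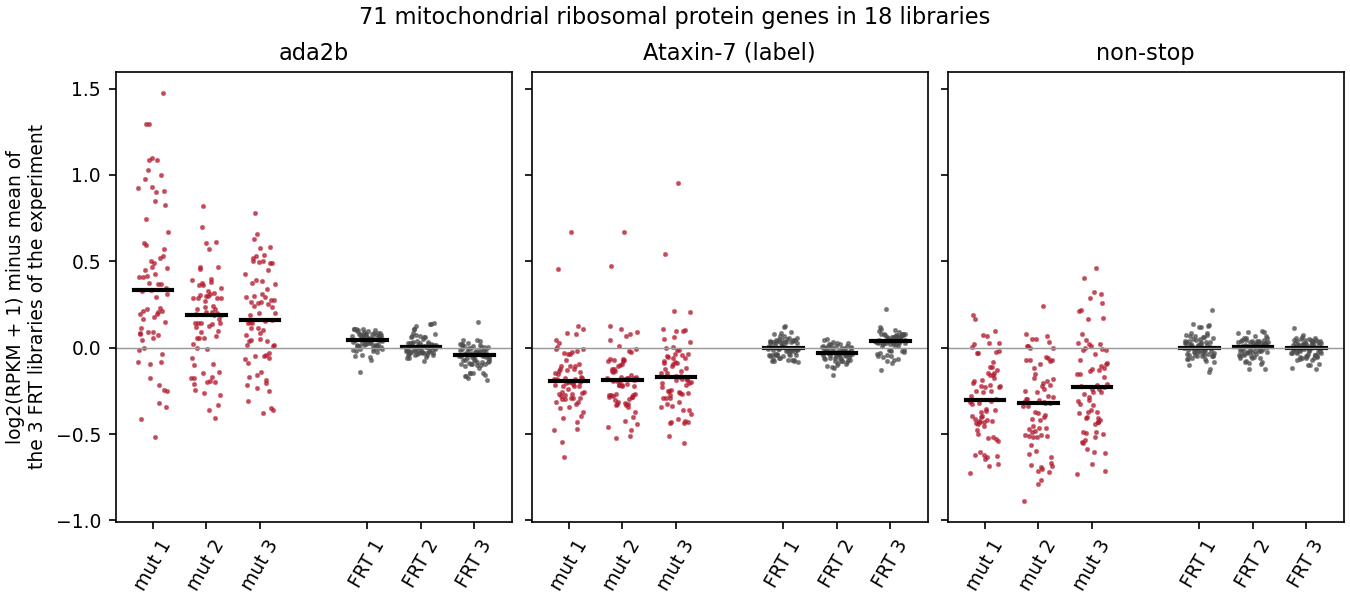
Each point is 1 of the 71 genes in 1 library, as log2(RPKM + 1) minus the mean of the 3 FRT libraries of that experiment; red points are mutant libraries, grey points FRT libraries, and black bars the median of the 71 genes. The medians of the ada2b libraries are 0.34, 0.19 and 0.16, those of the libraries labelled Ataxin-7 lie between -0.19 and -0.17, and those of the non-stop libraries between -0.32 and -0.23.

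In ada2b ovaries more of the genes rose than fell. Of the 71, 33 were higher and 6 were lower, while 25.6% of all 7674 tested genes were higher and 42.3% were lower. In percent of the members these counts are 46.5% and 8.45%. The median log2 change of the members was 0.22, with a range of -0.42 to 0.92, against -0.13 over all tested genes. The changes were small: 9 of the 39 called members passed 1.5-fold and 0 passed 2-fold. The 3 ada2b values lay above all 3 FRT values for 42 members and below them for 9, where 29.6% of all tested genes lay above and 46.7% below.

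The direction over the members was the same in each ada2b library, but its size was not. The median change was 0.34 in replicate 1, where 57 of 71 members exceeded their FRT mean, and 0.19 and 0.16 in replicates 2 and 3, with 52 members above the mean in each. Replicate 1 also had the fewest reads of the 18 libraries. Without it, 35 members were higher and 11 lower, with a median change of 0.17, and without FRT replicate 1 the counts were 27 and 3. An example chosen after its values were seen is mRpS21, with 177, 72.8 and 95.1 RPKM in ada2b ovaries, against 64.0, 69.6 and 56.5 RPKM in FRT ovaries, which did not pass the test (adjusted p = 0.065).

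The scaling of the libraries bears on this comparison, because more of the tested genes were lower than higher. With every library scaled to a common median the median change of all tested genes became 0.11, and with quantile normalization it became -0.01. The members' median then was 0.48 or 0.41, and the split of 33 higher and 6 lower became 53 and 0, or 53 and 2. All 33 members called higher stayed higher and called under both. Relative to the median of all tested genes, the members' median was above it under each of the 3 scalings.

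Both subunits took part. For the large subunit 23 of 47 genes were higher and 3 lower, with a median change of 0.24, and for the small subunit 10 of 24 were higher and 3 lower, with a median change of 0.16. The proteins that carry a number shared with bacterial ribosomal proteins, which form the conserved core of the particle, had 18 of 41 genes higher and 2 lower. Those with higher numbers, most of them additions of the mitochondrial ribosome, had 15 of 30 higher and 4 lower.

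The largest increases among called members whose values did not overlap belonged to genes of the large subunit. The gene mRpL36, whose bacterial counterpart is among the smallest ribosomal proteins, had 42.5, 30.4 and 27.0 RPKM in ada2b ovaries, against 17.9, 16.8 and 15.7 RPKM in FRT ovaries (log2 change 0.92, SE 0.16, adjusted p = 0.0025). All 3 ada2b libraries lay above all FRT libraries, with replicate 1 the highest. The gene mRpL33 had 59.6, 47.1 and 49.9 RPKM in ada2b ovaries, against 30.2, 30.2 and 25.8 RPKM in FRT ovaries (log2 change 0.83, SE 0.11, adjusted p = 0.00068), again with no overlap.

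Replicate 1 stood further from the other libraries for 3 more genes. For mRpL27, the counterpart of a bacterial protein that reaches towards the peptidyl transferase centre, RPKM was 85.8, 47.5 and 53.7 in ada2b ovaries, against 36.0, 37.2 and 30.4 in the FRT ovaries (log2 change 0.79, SE 0.22, adjusted p = 0.016). For mRpL43 it was 53.9, 38.1 and 37.4 in ada2b ovaries, against 25.2, 25.2 and 23.7 in FRT ovaries (log2 change 0.76, SE 0.14, adjusted p = 0.0032). For mRpL54 it was 68.3, 41.9 and 46.3 in ada2b ovaries, against 32.8, 33.1 and 29.1 in FRT ovaries (log2 change 0.67, SE 0.18, adjusted p = 0.014). None of the 3 overlapped, which was a condition for their choice. However, without FRT replicate 3 the limma adjusted p was 0.060 for mRpL27 and 0.053 for mRpL54. The 33 higher genes also held mRpL34, the member with the shortest exonic length, at 41.4, 24.8 and 27.8 RPKM in ada2b ovaries, against 20.4, 19.5 and 17.0 RPKM in FRT ovaries.

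The 6 lower members were mRpL12, mRpL37, mRpL50, mRpS7, mRpS23 and mRpS29. Their calls depended on the scaling, and so did the direction of mRpS7 and mRpL37. The gene mRpL50 had 35.8, 40.0 and 39.7 RPKM in ada2b ovaries, against 49.8, 52.1 and 53.4 RPKM in FRT ovaries (log2 change -0.42, SE 0.07, adjusted p = 0.0016). mRpS29, whose human counterpart DAP3 is a GTP-binding protein of the small subunit, had 36.1, 37.8 and 35.6 RPKM in ada2b ovaries, against 48.2, 46.6 and 43.4 RPKM in FRT ovaries (log2 change -0.33, SE 0.06, adjusted p = 0.0038). mRpS23 had 47.9, 45.0 and 44.5 RPKM in ada2b ovaries, against 56.9, 57.5 and 56.5 RPKM in FRT ovaries (log2 change -0.31, SE 0.06, adjusted p = 0.0029). In each of these genes all ada2b values lay below all FRT values, which was a condition for their choice as the lowest members.

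mRpL12 had 74.9, 88.6 and 80.7 RPKM in ada2b ovaries, against 103, 95.9 and 101 RPKM in FRT ovaries (log2 change -0.30, SE 0.08, adjusted p = 0.014). mRpS7, a protein of the head of the small subunit, had 68.7, 70.9 and 69.3 RPKM in ada2b ovaries, against 80.3, 77.5 and 82.3 RPKM in FRT ovaries (log2 change -0.20, SE 0.06, adjusted p = 0.017). Scaled to a common median, the log2 change was -0.15 for mRpL50, -0.06 for mRpS29, -0.04 for mRpS23 and -0.03 for mRpL12, it turned to 0.07 for mRpS7 and to 0.08 for mRpL37, and none of the 6 was called. With quantile normalization all 6 kept their negative sign and 2 were called.

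Levels of cell type markers moved with this comparison. All 8 muscle markers with a row, such as the myosin gene Mhc, were higher in ada2b ovaries, and their summed level was 201 to 339 RPKM there, against 19.8 to 37.3 RPKM in FRT ovaries. Of the 5 germline markers 3 were lower and 1 higher, and all 6 chorion genes, made by follicle cells late in egg formation, were lower, with a summed level of 951 to 2700 RPKM in ada2b ovaries, against 18870 to 21385 RPKM in FRT ovaries. Both follicle cell markers were higher, at 61.7 to 90.7 RPKM summed in ada2b ovaries, against 35.0 to 37.2 RPKM in FRT ovaries. No gene of these 4 lists was at 0 in all libraries of either group. Both tested haemocyte markers were higher, with 4.60 to 7.26 RPKM summed over the 3 of the list in ada2b ovaries, against 0.220 to 0.426 RPKM in FRT ovaries. Of the fat body markers 1 of 2 tested was higher, with 10.7 to 37.0 RPKM summed in ada2b ovaries, against 3.25 to 4.94 RPKM in FRT ovaries, where 1 of the 3 found was at 0 throughout. Of the 4 vitelline membrane genes, made by follicle cells before the chorion, 1 was lower, and their summed level overlapped between the groups. The part of these differences in the change of the members was not tested.

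Exonic length moved with this comparison too. Among all 881 tested genes no longer than the median member, 40.6% were higher and 24.4% lower, with a median change of 0.26. The 36 members of that length had 20 higher and 3 lower, with a median of 0.29. Among the 6446 longer tested genes 23.2% were higher and 45.0% lower, with a median of -0.18, and the 35 members of that length had 13 higher and 3 lower, with a median of 0.17. Across the 71 members the ada2b change and exonic length had a Spearman correlation of -0.34, and across 7327 tested genes with an annotated length it was -0.19. These points share their libraries, and genes are not independent replicates. The part of length in the change was not tested.

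**Figure D2:**
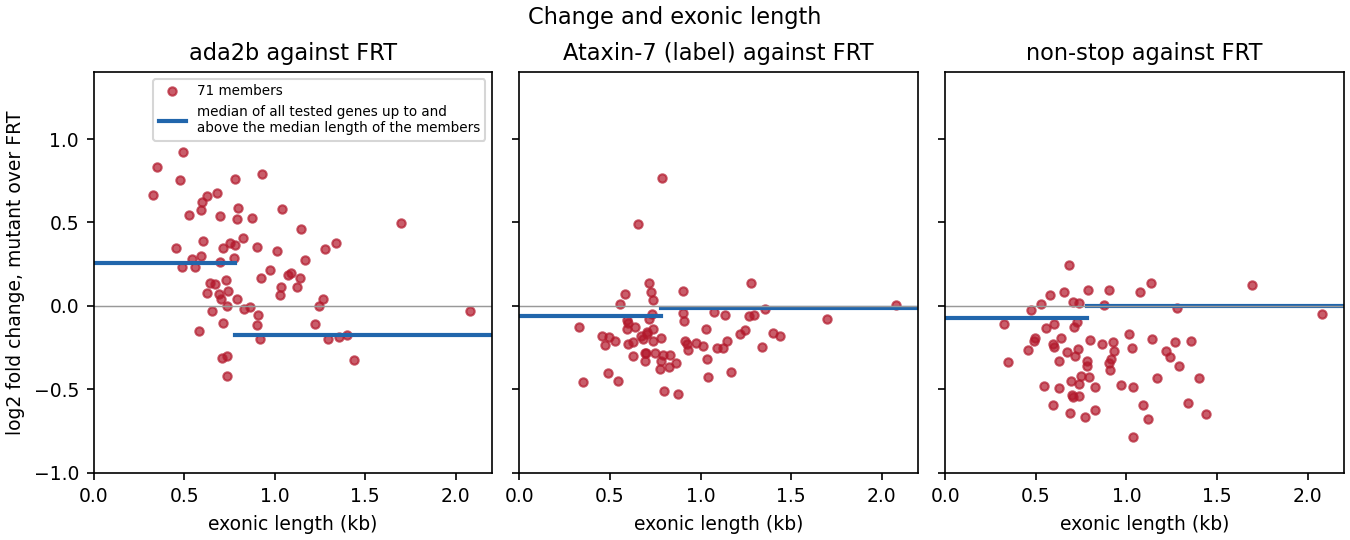
The log2 change of each of the 71 genes (points) is drawn against its exonic length in kb, with blue lines for the median of all tested genes up to and above the members' median length of 783 bases. In ada2b the blue lines stand at 0.26 and -0.18, and in the other experiments both lie between -0.07 and 0.00.

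Ovaries labelled Ataxin-7 showed the opposite direction. There 43 of the 71 genes were lower and 3 higher, while 24.3% of 7428 tested genes were lower and 20% were higher. The members' median log2 change was -0.18, with a range of -0.53 to 0.77, against -0.02 over all tested genes. Of the 46 called members 1 passed 1.5-fold, so the typical decrease was small. The groups did not overlap for 49 members that lay below FRT and 5 that lay above, where 31.1% of all tested genes lay below and 26% above.

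The median change was similar in the 3 libraries, and both subunits held lower genes. The median change in the 3 libraries was -0.19, -0.19 and -0.17, and 9, 9 and 12 of the 71 members exceeded their FRT mean. The large subunit had 26 of 47 genes lower and the small subunit 17 of 24, with median changes of -0.17 and -0.21, a difference that was not tested. Members up to the median length had 21 of 36 lower and longer ones 22 of 35, while 27.7% and 24.2% of all tested genes in those length classes were lower. Scaling to a common median left 43 lower and 3 higher, and quantile normalization gave 34 lower and 6 higher.

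The largest decrease was that of mRpL24, whose bacterial counterpart starts large subunit assembly and sits near the exit of the peptide tunnel. It had 58.2, 59.2 and 59.7 RPKM in ovaries labelled Ataxin-7, against 82.9, 85.6 and 88.0 RPKM in FRT ovaries (log2 change -0.53, SE 0.04, adjusted p = 9.2e-05). mRpS14, a protein of the head of the small subunit, had 17.6, 17.1 and 16.6 RPKM in the labelled ovaries, against 25.4, 24.0 and 25.0 RPKM in FRT ovaries (log2 change -0.51, SE 0.04, adjusted p = 0.00015). Within each group these values varied by a few RPKM, and the groups stood well apart.

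mRpL33, one of the genes with the largest increases in ada2b ovaries, had 20.9, 26.3 and 24.2 RPKM in ovaries labelled Ataxin-7, against 32.7, 32.5 and 33.5 RPKM in FRT ovaries (log2 change -0.46, SE 0.08, adjusted p = 0.0031). mRpS16 had 34.6, 33.5 and 34.6 RPKM in the labelled ovaries, against 46.3, 46.9 and 47.9 RPKM in FRT ovaries (log2 change -0.45, SE 0.03, adjusted p = 0.00014). mRpL2, the counterpart of a bacterial protein that is needed for the peptidyl transferase centre, had 17.9, 18.2 and 19.8 RPKM in the labelled ovaries, against 24.5, 25.5 and 26.1 RPKM in FRT ovaries (log2 change -0.43, SE 0.05, adjusted p = 0.00061). No value of the labelled ovaries reached an FRT value in any of these genes, which was a condition for their choice.

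The 3 members that were higher were mRpL48, mRpL14 and mRpS31. mRpL48 had 28.4, 28.4 and 34.7 RPKM in ovaries labelled Ataxin-7, against 19.1, 17.0 and 16.3 RPKM in FRT ovaries (log2 change 0.77, SE 0.09, adjusted p = 0.00078), the largest change of any member in that experiment. mRpL14 had 42.9, 43.5 and 45.7 RPKM in the labelled ovaries, against 29.3, 30.6 and 33.2 RPKM in FRT ovaries (log2 change 0.49, SE 0.05, adjusted p = 0.00052). mRpS31 had 30.7, 30.3 and 32.9 RPKM in the labelled ovaries, against 28.2, 28.1 and 29.0 RPKM in FRT ovaries (log2 change 0.13, SE 0.04, adjusted p = 0.033). The groups were apart in all 3, by a margin of about 1 RPKM in mRpS31, whose change was no larger than that of mRpL40, which was not called (log2 change 0.13, adjusted p = 0.053). For mRpL48 the annotation places frtz, and for mRpS31 mib1, on the opposite strand of part of the gene, while mRpL14 overlaps no other gene. All 3 kept their direction and their call under both other scalings.

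Muscle markers moved here as well, with all 6 tested markers higher. The summed level of the 8 markers was 65.7 to 90.6 RPKM in ovaries labelled Ataxin-7, against 33.7 to 47.9 RPKM in FRT ovaries. Germline markers had 1 of 5 higher and none lower, both follicle cell markers were not called, and 3 of 6 chorion genes were lower, at 14245 to 16156 RPKM summed in the labelled ovaries, against 19618 to 20970 RPKM in FRT ovaries. Their part in the change of the members was not tested.

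Non-stop ovaries had the lowest median change of the 3 experiments. There limma called 46 of the 71 genes lower and 0 higher, and the counts at an unadjusted p under 0.05 were also 46 and 0. Of all 7492 tested genes 25% were lower and 25.7% higher. The median log2 change was -0.27, with a range of -0.78 to 0.24, against -0.01 over all tested genes, and 8 of the 46 passed 1.5-fold. Values lay below all FRT values for 48 members and above them for 3, where 29% of all tested genes lay below and 30.8% above. The 3 that lay above were mRpL14, mRpL39 and mRpL54, and none of them passed the test. Without non-stop replicate 1 the count of 0 higher members was 1.

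All 3 non-stop libraries shared the direction. The median change was -0.30, -0.32 and -0.23, and 9, 8 and 16 of the 71 members exceeded their FRT mean. The large subunit had 31 of 47 genes lower with a median of -0.30, and the small subunit 15 of 24 with a median of -0.21. Among members up to the median length 22 of 36 were lower and among longer ones 24 of 35, against 27.8% and 24.5% of all tested genes in these classes. Scaled to a common median, 48 were lower and 0 higher. Quantile normalization gave 28 lower and 4 higher, and 28 of the 46 kept their call while all 46 kept their sign.

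mRpL2 was the member with the largest decrease, at 21.2, 18.8 and 21.1 RPKM in non-stop ovaries, against 36.7, 37.8 and 32.8 RPKM in FRT ovaries (log2 change -0.78, SE 0.08, adjusted p = 0.00029). mRpL44, which has the fold of an RNase III, had 31.9, 30.4 and 31.3 RPKM in non-stop ovaries, against 49.5, 50.8 and 51.2 RPKM in FRT ovaries (log2 change -0.68, SE 0.06, adjusted p = 0.00015). mRpL49 had 42.6, 38.7 and 43.4 RPKM in non-stop ovaries, against 67.4, 66.6 and 65.5 RPKM in FRT ovaries (log2 change -0.67, SE 0.07, adjusted p = 0.00027). The gap between the groups was larger than the spread within either of them in all 3 genes.

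The same held for 2 small subunit genes. mRpS29 had 39.2, 35.4 and 34.8 RPKM in non-stop ovaries, against 55.8, 60.4 and 56.8 RPKM in FRT ovaries (log2 change -0.65, SE 0.07, adjusted p = 0.0004). mRpS28 had 33.0, 34.0 and 34.5 RPKM in non-stop ovaries, against 51.5, 54.3 and 53.8 RPKM in FRT ovaries (log2 change -0.64, SE 0.06, adjusted p = 0.00021). mRpL42 fell by a similar amount, with 41.4, 36.8 and 49.7 RPKM in non-stop ovaries, against 64.7, 66.0 and 62.2 RPKM in FRT ovaries (log2 change -0.59, SE 0.11, adjusted p = 0.0031). Again no mutant value reached an FRT value, which was a condition for the choice of mRpS29 and mRpS28 but not of mRpL42.

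Of the marker lists, muscle markers had 0 of 6 called by limma, also 0 at an unadjusted p under 0.05, with a summed level of 52.6 to 100.3 RPKM in non-stop ovaries, against 51.7 to 74.4 RPKM in FRT ovaries. Germline markers had 3 of 5 higher and 1 lower, chorion genes 2 of 6 higher, and of the follicle cell markers 1 of 1 tested was lower. Follicle cell markers summed to 8.33 to 20.3 RPKM in non-stop ovaries, against 23.8 to 31.8 RPKM in FRT ovaries, and no gene of these lists was at 0 in all libraries of either group. Their part in the change of the members was not tested.

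The calls were also counted by overlap with a neighbour and by chromosome arm. The 31 members that overlap no other gene had 10 higher and 3 lower in ada2b (median change 0.11), 1 higher and 17 lower in the Ataxin-7 label (median -0.16) and 0 higher and 19 lower in non-stop (median -0.25). In ada2b these 31 had 32.3% higher and 9.68% lower, where all tested genes had 25.6% and 42.3% and all 71 members 46.5% and 8.45%, so their share of higher calls lay nearer to that of all tested genes. In the Ataxin-7 label 54.8% of the 31 were lower, against 24.3% of all tested genes, and in non-stop 61.3%, against 25%. Genes called higher in ada2b lay on every arm, with shares from 40.0% (6 of 15) on 3L to 58.3% (7 of 12) on 2L, against 25.6% of all tested genes. Genes called lower in non-stop ran from 50.0% (6 of 12) on 2L to 81.0% (17 of 21) on 3R, against 25% of all tested genes. In the Ataxin-7 label the lower ones ran from 50.0% (6 of 12) on 2R to 83.3% (10 of 12) on 2L, against 24.3% of all tested genes. The gene Ada2b lies on 3R, Atxn7 on 2L, and not, which encodes Non-stop, on 3L. The arm with the highest share in the Ataxin-7 label was that of Atxn7, but the same did not hold in ada2b or non-stop. In ada2b 42.9% (9 of 21) were higher on 3R, the arm of Ada2b. In non-stop 9 of 15 were lower on 3L, the arm of not. The shares of all tested genes given here were not split by arm. Differences between arms were not tested.

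**Figure D3:**
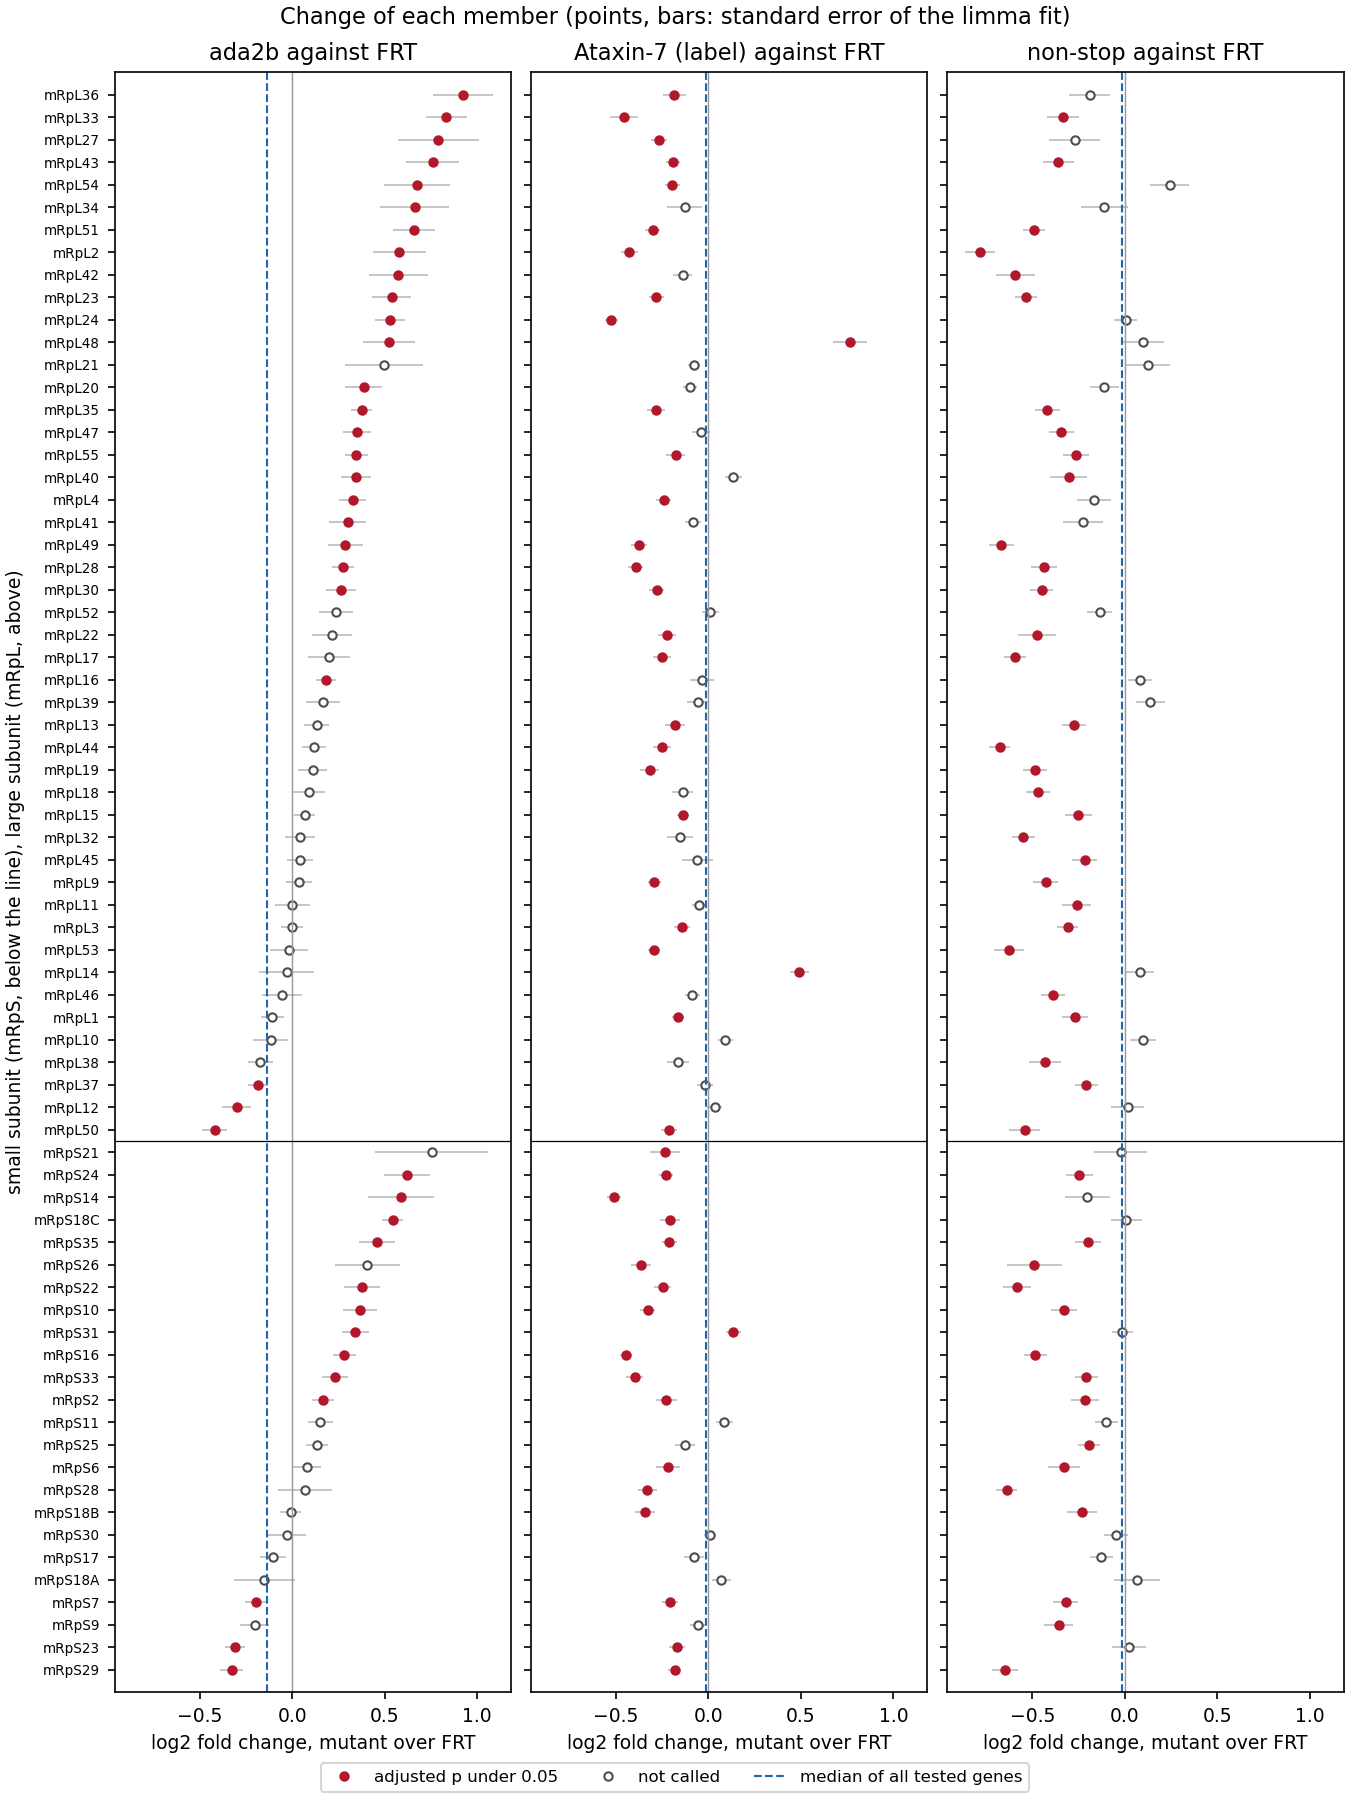
Points are the log2 change of each gene, mutant over FRT, with bars for the standard error of the limma fit; filled points were called, open points were not, the black line separates large subunit genes (above) from small subunit genes (below), and the dashed blue line is the median of all tested genes. Within each subunit genes are ordered by their ada2b change, which runs from -0.42 to 0.92, while most points of the other 2 panels lie left of 0.

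Set side by side, the 3 experiments gave a recurring pattern. Of the 71 members, 34 were lower both in ovaries labelled Ataxin-7 and in non-stop ovaries, which is 47.9% of them, against 13.3% of the 7171 genes tested in all 3 experiments. Of these 34, 17 were also higher in ada2b ovaries, 14 were not called there and 3 were lower there. The combination of higher in ada2b and lower in both others held for 23.9% of the members, against 3.08% of all genes tested in the 3 experiments. That share of all genes was not split by exonic length, with which the ada2b changes moved. The 17 were mRpL2, mRpL23, mRpL28, mRpL30, mRpL33, mRpL35, mRpL43, mRpL49, mRpL51, mRpL55, mRpS2, mRpS10, mRpS16, mRpS22, mRpS24, mRpS33 and mRpS35, so that both subunits and both number classes were present.

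mRpL2 shows the pattern at full size. It had 56.3, 38.7 and 39.5 RPKM in ada2b ovaries, against 28.9, 29.1 and 29.6 RPKM in FRT ovaries (log2 change 0.58, SE 0.14, adjusted p = 0.011), and fell in the other 2 experiments as given above. mRpL30, the third highest member, had 101, 83.7 and 89.7 RPKM in ada2b ovaries, against 77.2, 74.7 and 75.7 RPKM in FRT ovaries (log2 change 0.26, SE 0.08, adjusted p = 0.025). It had 75.8, 70.4 and 72.2 RPKM in ovaries labelled Ataxin-7, against 88.0, 86.7 and 91.1 RPKM in FRT ovaries, and 68.5, 64.4 and 69.5 RPKM in non-stop ovaries, against 90.7, 90.9 and 95.9 RPKM in FRT ovaries. In both genes no mutant value overlapped an FRT value in any of the 3 experiments. Both overlap a gene on the opposite strand, Ufd1 for mRpL2 and Torsin for mRpL30.

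Only mRpL50, mRpS7 and mRpS29 were called in one direction in all 3 experiments, and all 3 were lower. mRpL50 had 56.1, 56.7 and 53.9 RPKM in ovaries labelled Ataxin-7, against 63.6, 62.7 and 67.5 RPKM in FRT ovaries (log2 change -0.21), and 31.8, 26.2 and 29.7 RPKM in non-stop ovaries, against 41.5, 44.9 and 42.4 RPKM in FRT ovaries (log2 change -0.54). mRpS7 had 77.6, 78.1 and 73.2 RPKM in the labelled ovaries, against 86.1, 86.5 and 92.4 RPKM in FRT ovaries (log2 change -0.21), and 64.8, 68.3 and 60.5 RPKM in non-stop ovaries, against 79.9, 79.6 and 82.5 RPKM in FRT ovaries (log2 change -0.32). mRpS29 had 39.1, 39.2 and 38.3 RPKM in the labelled ovaries, against 46.0, 42.9 and 43.9 RPKM in FRT ovaries (log2 change -0.18). The shared calls of these genes rest on the scaling in ada2b, where mRpS7 turned and the others kept their sign but lost their call with a common median.

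At the other end, 8 members were called in none of the 3 experiments, namely mRpL10, mRpL21, mRpL39, mRpL52, mRpS11, mRpS17, mRpS18A and mRpS30. mRpL10 is the partner of mRpL12 in the stalk, and mRpL12 itself was called only in ada2b, having 101, 104 and 104 RPKM in ovaries labelled Ataxin-7, against 103, 95.6 and 103 RPKM in FRT ovaries, and 127, 106 and 106 RPKM in non-stop ovaries, against 109, 110 and 115 RPKM in FRT ovaries. These values overlap in both experiments. A p above the threshold does not show that a gene did not change, and for mRpS18A the standard error of the change was 0.17 in ada2b and 0.13 in non-stop, among the larger ones of the list.

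Another 7 members were higher in ada2b, lower in the Ataxin-7 label and not called in non-stop, namely mRpL4, mRpL24, mRpL27, mRpL36, mRpL54, mRpS14 and mRpS18C. mRpL24 had 75.7, 69.1 and 71.9 RPKM in ada2b ovaries, against 45.1, 53.8 and 50.8 RPKM in FRT ovaries (log2 change 0.53, SE 0.08, adjusted p = 0.0014). mRpS14 had 57.6, 35.5 and 38.9 RPKM in ada2b ovaries, against 30.4, 27.8 and 26.6 RPKM in FRT ovaries (log2 change 0.59, SE 0.18, adjusted p = 0.023). The ada2b values stood clear of FRT in both, with replicate 1 far above the others in mRpS14 alone. In non-stop ovaries mRpS14 had 47.4, 38.1 and 53.8 RPKM, against 56.3, 49.6 and 53.5 RPKM in FRT ovaries, so that the groups overlapped.

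Only mRpL48 and mRpS31 were higher both in ada2b and in the Ataxin-7 label. mRpL48 had 37.7, 25.9 and 27.0 RPKM in ada2b ovaries, against 21.14, 20.001 and 20.17 RPKM in FRT ovaries (log2 change 0.52, SE 0.14, adjusted p = 0.015). mRpS31 had 41.8, 37.1 and 36.8 RPKM in ada2b ovaries, against 31.81, 29.96 and 28.81 RPKM in FRT ovaries (log2 change 0.34, SE 0.075, adjusted p = 0.0064). Neither gene was called in non-stop ovaries, where their values overlapped those of FRT. mRpL14, higher in the Ataxin-7 label, had 59.4, 39.6 and 41.8 RPKM in ada2b ovaries, against 46.6, 46.3 and 48.6 RPKM in FRT ovaries, with replicate 1 above and replicates 2 and 3 below all FRT values.

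The genes mRpS18A, mRpS18B and mRpS18C encode 3 related forms of the small subunit protein S18. Their patterns of calls differed, though mRpS18B and mRpS18C were both lower in the Ataxin-7 label. mRpS18C had 45.3, 47.8 and 43.9 RPKM in ada2b ovaries, against 30.5, 31.5 and 31.1 RPKM in FRT ovaries (log2 change 0.54, SE 0.06, adjusted p = 0.00031). It had 43.0, 41.1 and 46.3 RPKM in ovaries labelled Ataxin-7, against 51.8, 47.5 and 51.7 RPKM in FRT ovaries (log2 change -0.21, adjusted p = 0.021), and was not called in non-stop ovaries. mRpS18B was not called in ada2b ovaries and was lower in both other experiments. It had 28.5, 29.1 and 26.4 RPKM in ovaries labelled Ataxin-7, against 36.8, 33.5 and 37.1 RPKM in FRT ovaries (log2 change -0.34, limma adjusted p = 0.0028). In non-stop ovaries mRpS18B had 43.0, 39.2 and 39.8 RPKM, against 43.3, 51.1 and 49.3 RPKM in FRT ovaries (log2 change -0.23, adjusted p = 0.047). mRpS18A overlapped its FRT values in every experiment, with 85.7, 55.5 and 62.0 RPKM in ada2b ovaries, against 74.5, 81.3 and 66.6 RPKM in FRT ovaries. Differences between the paralogs were not tested.

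**Figure D4:**
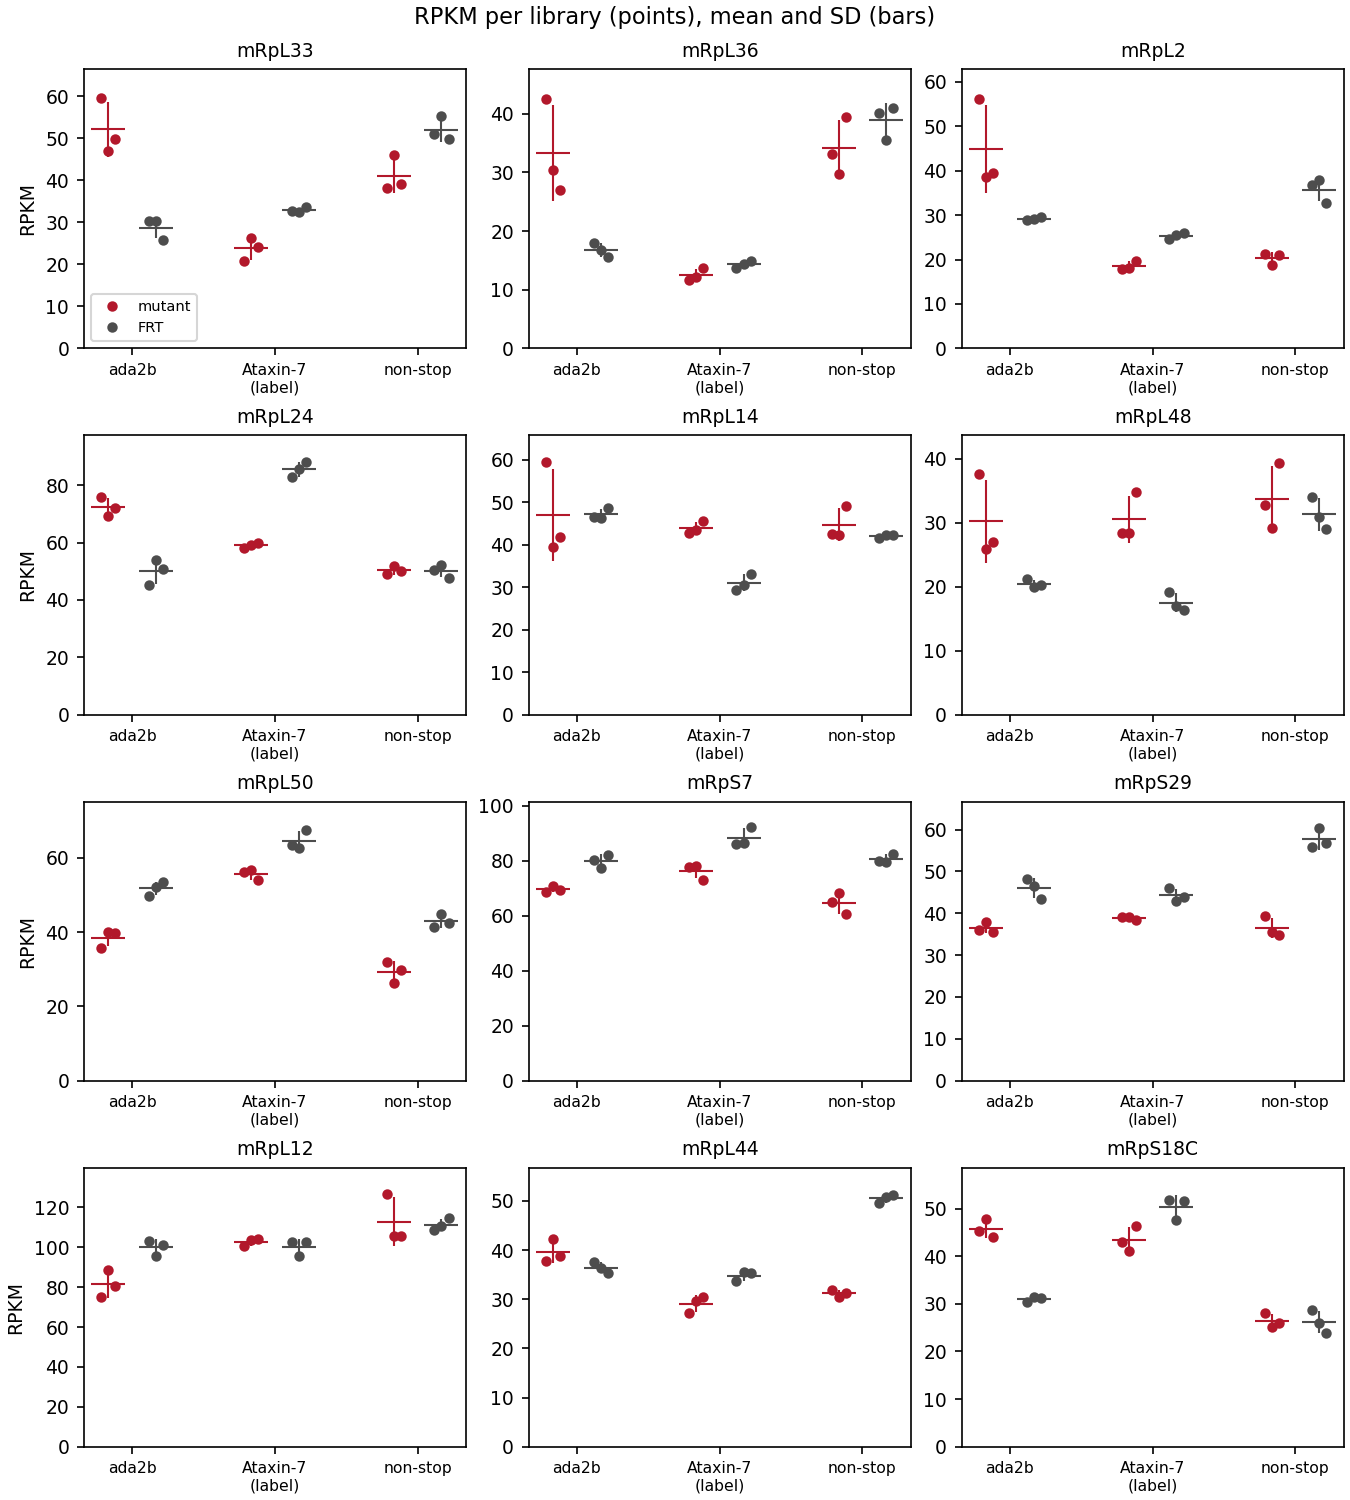
RPKM of 12 genes in all 18 libraries (points), with the mean and SD of each group of 3 as bars, mutant in red and left of its FRT control in grey. mRpL33 and mRpL2 lie above FRT in ada2b and below it in the other experiments, mRpL50, mRpS7 and mRpS29 lie below FRT in all 3, and mRpL48 and mRpL14 are the members that rose most in ovaries labelled Ataxin-7.

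Whether the changes differed between mutants was tested as an interaction over 12 libraries at a time, mutant minus FRT of one experiment minus the same of another. The ada2b change exceeded the non-stop change for 50 of the 71 members and fell short of it for 2, while 27% of 7618 tested genes were called higher and 43.6% lower. The members' median difference was 0.50, against -0.18 over all tested genes. It was largest in mRpL2, at 1.36 (SE 0.17, adjusted p = 4.5e-05), followed by mRpL33 at 1.17 (SE 0.14) and mRpL42 at 1.17 (SE 0.20). mRpL42 had 91.5, 58.7 and 67.4 RPKM in ada2b ovaries, against 49.8, 47.6 and 45.2 RPKM in FRT ovaries. The 2 on the other side were mRpS23 at -0.33 (adjusted p = 0.016) and mRpL12 at -0.31 (adjusted p = 0.033), and with libraries scaled to a common median they turned to 0.00064 and 0.02 and lost their call. The count of 2 was 1 without any single one of 6 libraries, namely ada2b replicate 3, ada2b FRT replicates 1 and 3, non-stop replicate 1, and non-stop FRT replicates 1 and 2.

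The ada2b change exceeded the change of the ovaries labelled Ataxin-7 for 46 members and fell short of it for 4, while 26.3% of 7601 tested genes were called higher and 42.2% lower. The median difference was 0.38 over the members and -0.13 over all tested genes. The largest were mRpL33 at 1.29 (SE 0.14, adjusted p = 1.6e-05), mRpL36 at 1.11 (SE 0.19) and mRpS14 at 1.10 (SE 0.19). The 4 others were mRpL14 at -0.52, mRpL12 at -0.33, mRpL50 at -0.21 and mRpL37 at -0.16, and none of the 4 was called with a common median, where mRpL50 turned to 0.07 and mRpL37 to 0.11. Without ada2b replicate 1 this count was 8, and it was 2 without ada2b FRT replicate 2, without replicate 2 of the Ataxin-7 label, or without replicate 2 of its FRT control.

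The 2 mutants of the deubiquitinase module, as labelled, gave fewer called members. The change of the ovaries labelled Ataxin-7 exceeded the non-stop change for 20 members and fell short of it for 2, while 16.8% of 7482 tested genes were called higher and 20.7% lower. The share of members called higher was 28.2%, and their median difference was 0.12, against -0.01 over all tested genes. Of the 20, 16 were among the 47 large subunit genes (34.0%) and 4 among the 24 small subunit genes (16.7%), against 16.8% of all tested genes. By number, 13 of 30 members with higher numbers (43.3%) and 7 of 41 with bacterial numbers (17.1%) were called higher. These differences were not tested. The largest differences belonged to mRpL48 at 0.67 (SE 0.16, adjusted p = 0.0066), mRpS29 at 0.46 (SE 0.08, adjusted p = 0.00082) and mRpL42 at 0.45 (SE 0.13, adjusted p = 0.015).

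The 2 with the opposite sign were mRpL24 at -0.53 (SE 0.06, adjusted p = 0.00013) and mRpL54 at -0.44 (SE 0.12, adjusted p = 0.014). mRpL24 had 49.0, 51.8 and 50.0 RPKM in non-stop ovaries, against 50.4, 52.1 and 47.7 RPKM in FRT ovaries, so that the largest decrease of the Ataxin-7 label came with overlapping values in non-stop. mRpL54 had 31.1, 31.0 and 32.0 RPKM in ovaries labelled Ataxin-7, against 36.0, 34.6 and 37.7 RPKM in FRT ovaries, and 42.4, 49.3 and 57.5 RPKM in non-stop ovaries, against 40.9, 42.3 and 41.4 RPKM in FRT ovaries. Both kept sign and call under the 2 other scalings. Over the 71 members the changes of the Ataxin-7 label and of non-stop had a Spearman correlation of 0.54, those of ada2b and the Ataxin-7 label -0.35, and those of ada2b and non-stop 0.04. These are descriptions over 71 genes that share libraries within an experiment.

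Other genes of mitochondrial translation gave mixed calls. Of 9 translation factors, 1 was higher and 3 lower in ada2b ovaries, 2 higher and 3 lower in ovaries labelled Ataxin-7, and 4 higher and 3 lower in non-stop ovaries. In ada2b these are 11.1% and 33.3%, against 25.6% and 42.3% of all tested genes. In the Ataxin-7 label they are 22.2% and 33.3%, against 20% and 24.3%, and in non-stop 44.4% and 33.3%, against 25.7% and 25%. mEFTu1, an elongation factor that brings tRNA to the ribosome, averaged 83.5 ± 8.58 RPKM in non-stop ovaries and 128 ± 2.60 RPKM in FRT ovaries (SD, n = 3 each; log2 change -0.61, limma adjusted p = 0.00093), and it was lower in ovaries labelled Ataxin-7 too. mIF2, an initiation factor, was higher in both of these, with log2 changes of 0.54 in non-stop and 0.32 in the labelled ovaries. mRF1, a release factor, was lower in all 3, with log2 changes of -0.60 in ada2b, -0.29 in the labelled ovaries and -0.29 in non-stop, and kept these calls under both other scalings. The ada2b split of the 9 factors turned with the scaling, to 6 higher and 1 lower with a common median and 4 and 1 with quantile normalization.

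The 15 mitochondrial aminoacyl-tRNA synthetases charge the tRNAs of the organelle. In ada2b ovaries 1 was higher and 6 were lower, with a median change of -0.23, which became 5 higher and 4 lower with a common median and 3 and 6 with quantile normalization, and in non-stop ovaries 6 were higher and 1 was lower, with a median change of 0.15. In ovaries labelled Ataxin-7 3 were higher and 1 was lower. The 40% of synthetases that were lower in ada2b lay near the 42.3% of all tested genes, while 6.67% were higher, against 25.6%. In non-stop 40% were higher and 6.67% lower, against 25.7% and 25% of all tested genes. In the Ataxin-7 label the shares were 20% and 6.67%, against 20% and 24.3%. ValRS-m averaged 7.42 ± 0.294 RPKM in non-stop ovaries and 5.08 ± 0.101 RPKM in FRT ovaries, and 3.08 ± 0.223 RPKM in ada2b ovaries and 3.86 ± 0.114 RPKM in FRT ovaries (SD, n = 3 each; log2 changes 0.47 and -0.25, limma adjusted p = 0.001 and 0.026). The ada2b change of ValRS-m was -0.04 with a common median and lost its call.

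The 13 factors of mitochondrial DNA and RNA gave 2 higher and 3 lower genes in ada2b ovaries, 3 and 3 in ovaries labelled Ataxin-7, and 1 and 3 in non-stop ovaries. The ada2b split was 5 and 2 with a common median. In the Ataxin-7 label 23.1% were higher and 23.1% lower, near the 20% and 24.3% of all tested genes. The shares were 15.4% and 23.1% in ada2b, against 25.6% and 42.3%, and 7.69% and 23.1% in non-stop, against 25.7% and 25%. The largest change of the list was that of mtTFB2, at -0.76 in ada2b, and mtTFB2 was lower in non-stop too (-0.26). mtTFB1 was lower in the Ataxin-7 label and in non-stop, while mtDNA-helicase was lower in ada2b and higher in the Ataxin-7 label. TFAM, which packages mitochondrial DNA and starts its transcription, was lower in the Ataxin-7 label and in non-stop. It had 43.9 ± 2.75 RPKM in non-stop ovaries and 68.8 ± 2.45 RPKM in FRT ovaries (SD, n = 3 each). Of the 2 mitochondrial rRNA genes, mt:srRNA was higher in ovaries labelled Ataxin-7 (log2 change 0.97). It was lower in non-stop ovaries (log2 change -1.06, limma adjusted p = 0.026), although its values overlapped those of FRT there. The other, mt:lrRNA, was not called in any experiment. bonsai was lower in all 3 experiments, with log2 changes of -0.27, -0.27 and -0.52 in ada2b, the Ataxin-7 label and non-stop, but lost its ada2b call under both other scalings. tko was higher in ada2b (log2 change 0.42) under every scaling.

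The other 2 lists were the proteins of the cytoplasmic ribosome and the nuclear genes of oxidative phosphorylation, whose partner subunits the mitochondrial ribosome makes. Of the cytoplasmic ribosomal protein genes 33 of 82 were higher and 2 lower in ada2b ovaries, 0 of 81 higher and 35 lower in ovaries labelled Ataxin-7, and 2 of 82 higher and 79 lower in non-stop ovaries. Their median changes were 0.34, -0.13 and -0.77, and the count of 0 stayed 0 at an unadjusted p under 0.05. In ada2b 40.2% were higher and 2.44% lower, against 25.6% and 42.3% of all tested genes. Lower were 43.2% in the Ataxin-7 label and 96.3% in non-stop, against 24.3% and 25% of all tested genes. The ada2b split became 76 higher and 0 lower with a common median (median 0.61) and 53 and 2 with quantile normalization (median 0.27). Quantile normalization gave 38 lower in non-stop, with a median of -0.19, and 2 higher and 23 lower in the Ataxin-7 label. Of 62 oxidative phosphorylation genes 5 were higher and 11 lower in ada2b ovaries, 7 higher and 30 lower in ovaries labelled Ataxin-7, and 2 higher and 44 lower in non-stop ovaries, with median changes of 0.02, -0.13 and -0.40. Of these 62 genes 8.06% were higher and 17.7% lower in ada2b, both under the 25.6% and 42.3% of all tested genes. In the Ataxin-7 label the shares were 11.3% and 48.4%, against 20% and 24.3%. In non-stop they were 3.23% and 70.97%, against 25.7% and 25%. The ada2b split of the 62 turned to 38 higher and 1 lower with a common median and to 34 and 2 with quantile normalization. The members' medians were 0.22, -0.18 and -0.27, and differences between the lists were not tested.

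**Figure D5:**
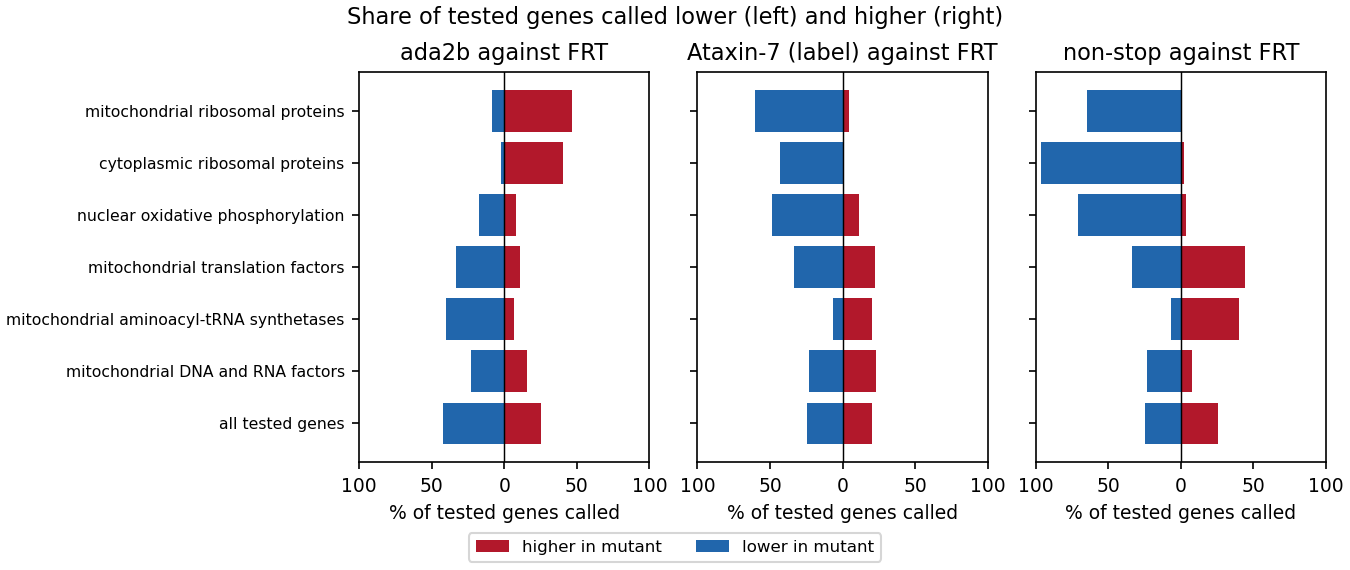
Bars give the percent of tested genes of each list that were called higher (red, right) or lower (blue, left) in the mutant, with all tested genes in the last row. Mitochondrial ribosomal protein genes had 46.5% higher in ada2b, 60.6% lower in the Ataxin-7 label and 64.8% lower in non-stop.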

How the data were processed

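Poly(A) RNA of 18 ovary libraries was measured. The authors deposited RPKM values, reads per kilobase of a gene length and per unit of a scaled library total. The submitters' processing notes name CASAVA 1.8.2, TopHat2 2.0.13 and edgeR 3.14.0, and the build dm3. The counter and its use of strand are not given in the sources used here. The values of 13903 of 13903 genes above 0 were whole multiples of 1 read (tolerance 0.01), which gave the reads per library. Columns were matched to samples by name, and no other column was used.

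The test was limma 3.58.1 under R 4.3.3, with a trended eBayes step, on log2 of RPKM plus a pseudocount of 1. It covered every gene whose RPKM averaged 1 or more over the libraries compared, and p-values were adjusted over all such genes by Benjamini-Hochberg. The test was also run on simulated counts, in which far fewer genes changed than were called here and as many rose as fell. That setting differs from these data, and no result of it is used. Promoter motifs of the plan were not counted, as no promoter sequences were used here. Each mutant was set against its own FRT control, and differences between changes were tested as interactions. Alternatives were pseudocount, filter, scaling, variance model, replicate block, 1 fit of 18 libraries, each library left out, and members on the arm of the mutated gene left out. Symbols, strands and exonic lengths came from BDGP6.54, with 15002 of 15682 identifiers matched, and no coordinates are given. Members and lists were chosen with earlier results of these data known. Named genes were the 5 highest and 5 lowest called members without overlap per mutant, those called in one direction in all 3, the 3 highest and 3 lowest called differences per interaction, the 3 highest and 3 lowest levels, and the S18 paralogs. Of other lists, genes called in at least 2 mutants or with the largest change were eligible. mRpS21, mRpL10, mRpL37, mRpL39, mRpL53 and members listed only by their calls were named after their values were seen. Other software was pandas 2.3.3 and matplotlib 3.10.9 in Python 3.11.15.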

Additional observations from a re-analysis of the deposited data

Results flagged for a closer look

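Members whose change differed from one mutant to another were found with limma interaction terms over all genes. For ada2b minus non-stop, 50 members were called higher and 2 lower, and the named ones were mRpL2 (1.36), mRpL33 (1.17), mRpL42 (1.17), mRpS23 (-0.33) and mRpL12 (-0.31). For ada2b minus the Ataxin-7 label, 46 were called higher and 4 lower, with mRpL33 (1.29), mRpL36 (1.11), mRpS14 (1.10), mRpL14 (-0.52), mRpL12 (-0.33) and mRpL50 (-0.21). For the Ataxin-7 label minus non-stop, 20 were called higher and 2 lower, with mRpL48 (0.67), mRpS29 (0.46), mRpL42 (0.45), mRpL24 (-0.53) and mRpL54 (-0.44). Each value is a difference of log2 changes. Each mutant has its own FRT control and experiment, so differences between mutants and between experiments cannot be told apart.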

How the results depend on the processing

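The 3 main directions, higher in ada2b and lower in the Ataxin-7 label and in non-stop, held under every alternative run, but counts moved with scaling. With a common median, ada2b gave 53 members higher and 0 lower (median change 0.48), the non-stop median was -0.34, 0 members were lower in ada2b minus non-stop and 0 in ada2b minus the Ataxin-7 label, and 31 were higher in the Ataxin-7 label minus non-stop. With quantile normalization, ada2b gave 53 higher and 2 lower (median 0.41), the Ataxin-7 label 6 higher (median -0.14), non-stop 28 lower and 4 higher (median -0.15), and the lower counts were 5 in the Ataxin-7 label minus non-stop and 1 in ada2b minus the Ataxin-7 label. In 1 fit of 18 libraries, 1 member was lower in the Ataxin-7 label minus non-stop. The cause was not tested.

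Leaving out each library in turn gave 22 to 38 higher and 3 to 11 lower in ada2b (median 0.17 to 0.26), 2 to 3 higher and 35 to 42 lower in the Ataxin-7 label (median -0.22 to -0.17), and 0 to 1 higher and 31 to 45 lower in non-stop (median -0.31 to -0.23). For differences it gave 47 to 55 higher and 1 to 3 lower in ada2b minus non-stop, 39 to 47 and 2 to 8 in ada2b minus the Ataxin-7 label, and 19 to 25 and 2 to 3 in the Ataxin-7 label minus non-stop. The 3 lower members without ada2b FRT replicate 1 and the 11 without ada2b replicate 1 were the extremes of the 6 in ada2b.

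Same-numbered mutant and FRT libraries had correlations of their deviations between -0.38 and 0.13, so the numbers were not taken as pairs. With the number as a replicate block, ada2b gave 33 higher and 4 lower, the Ataxin-7 label 3 and 42, non-stop 0 and 37, and ada2b minus non-stop 49 higher and 1 lower.

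Of 712 alternative values for 44 named changes, 667 kept sign and call, 41 kept the sign and lost the call, and 4 changed sign, all with a common median: mRpS7 in ada2b (0.0699), mRpL12 (0.0224) and mRpS23 (0.00064) in ada2b minus non-stop, and mRpL50 in ada2b minus the Ataxin-7 label (0.0659). Leaving out members on the arm of the mutated gene moved no count by over 1.5 times. Fewer members give lower counts whatever the arm, so this cannot show whether the arm mattered. The fewest reads of any member in a library were 90.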
